A study of Mus musculus with 6 samples.

Results

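P2ry12, P2ry13, Tmem119, Cx3cr1, Siglech, Selplg, Gpr34, Fcrls and Crybb1 are 9 genes that mouse microglia transcribe at rest and that are commonly used to recognise homeostatic microglia. They were taken by name from the feature list of the libraries, 9 of 32287 genes, each with exactly 1 matching row. The rule that picked them used names only, but earlier results of these data were known when they were chosen. Their unique molecular identifier (UMI) counts were followed mouse by mouse in microglia with many or few ribosomal transcripts, in macrophage-like cells, and in endothelial cells, where they served as a measure of background.

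Microglia are the resident macrophages of the brain parenchyma, and their resting programme depends on transforming growth factor beta (TGF-beta) from the surrounding tissue and on the transcription factors PU.1 (Spi1), Sall1, Irf8 and the Mef2 family. The programme is built around sensing. P2ry12 and P2ry13 are receptors for ADP, and Cx3cr1 is the receptor for the neuronal and endothelial chemokine Cx3cl1 (fractalkine). Gpr34 binds lysophosphatidylserine, and Siglech is a receptor of the Siglec family that signals through the adaptor Tyrobp (DAP12). Selplg (PSGL-1) is the ligand of P-selectin. Fcrls is an Fc receptor-like surface protein, Tmem119 is a membrane protein used as a microglial marker, and Crybb1 encodes a crystallin first known from the eye lens that mature microglia also transcribe. Near amyloid deposits, microglia are known to lower part of this set while they raise the genes of disease-associated microglia (DAM), such as Cst7, Clec7a and Itgax.

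The study compared the cerebral vasculature of 3 male WT mice (genotype label C57BL/6J) with that of 3 male ArcSwe mice (genotype label AppArcSwe, condition label AD). All 6 mice were untreated and 12 months old, and each gave 1 library, so replicates are separate animals. In the study's methods ArcSwe is a transgenic App line used for its heavy amyloid load in vessel walls. The promoter of the transgene and whether the controls were littermates are not given in the sources used here. Cells came from microvessel fragments caught with beads against CD31, an endothelial surface protein, so the microglia described here are those that came along with the vessel fragments.

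The 6 libraries held 49059 cells, of which 44112 were kept. The median UMI count of the kept cells lay between 2922 and 5542 per library, and no more than 33 cell barcodes were shared by any pair of libraries. The genotype labels were checked through Cst7, a DAM gene, whose fold change in all microglia was 5.33 on the log2 scale (SE 0.56, adjusted p = 0.0294 by edgeR's quasi-likelihood test) in favour of ArcSwe. App itself did not pass the test in microglia (0.51, SE 0.36, adjusted p = 0.722), and whether reads of the transgene are counted under the mouse gene was not tested.

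Microglia-like cells were 5 clusters with 7168 cells, named from 14 marker genes that include none of the 9, after clustering without the 9. WT replicates 1, 2 and 3 held 1043, 906 and 1497 of these cells and ArcSwe replicates 1, 2 and 3 held 1124, 225 and 2373. All 14 markers were enriched in the cluster that held most cells of WT replicates 1 and 2 (cluster 9), and 9 to 13 of the 14 in the other 4 clusters. Cluster 9 held 762 and 609 cells of those mice, cluster 11 held 1331 of the cells of WT replicate 3, and cluster 4 held 769, 197 and 1814 cells of the ArcSwe mice, so different clusters made up the class in different mice. The median UMI counts of clusters 4 and 11 were 1238.5 and 1201, 0.358 and 0.365 of the median of the cells' own libraries.

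Each microglia-like cell was placed by the share of its UMIs on ribosomal protein genes, as ribosomal-high (3% or more) or ribosomal-low (under 3%). The ribosomal-high class held 746, 579 and 295 cells in the WT mice and 381, 17 and 1073 in the ArcSwe mice, and the ribosomal-low class held 297, 327 and 1202 cells in the WT mice and 743, 208 and 1300 in the ArcSwe mice. The ribosomal-low share of microglia was 48.3% ± 28.0 (SD, n = 3) in WT and 71.1% ± 19.3 (SD, n = 3) in ArcSwe, a difference that did not exceed the spread between mice (two-sided exact permutation test, p = 0.3, where 3 mice against 3 allow no p under 0.1). The class is a range and not a cell type. A share between 2.5% and 3.5% was found in 26.2% of the microglia of ArcSwe replicate 3 and in 1.78% to 14.4% in the other mice. The study's methods left out a microglial cluster low in ribosomal and high in mitochondrial genes, called low-quality cells in its supplement. Whether ribosomal-low cells match that cluster was not tested. The median mitochondrial share was higher in ribosomal-low than in ribosomal-high cells of every mouse. It was 1.40% against 0.602% in WT replicate 1 and 3.51% against 3.15% in ArcSwe replicate 3. Ribosomal-high cells held a median of 6701, 6749 and 2793 UMIs in the WT mice and 6399, 8349 and 1625 in the ArcSwe mice, against 1086 to 1934.5 in ribosomal-low cells of all mice.

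Endothelial transcripts differed between these sums. The summed level of 10 endothelial markers in ribosomal-high microglia was 1081, 983 and 8318 CPM (counts per 1000000 UMIs of the genes left in for testing) in the WT mice and 3871, 3149 and 8949 CPM in the ArcSwe mice. In ribosomal-low microglia it was 212 to 777 CPM in WT and 332 to 1577 CPM in ArcSwe, and in endothelial cells it was at least 22213 CPM in every mouse. WT replicate 3 and ArcSwe replicate 3 therefore stood apart from the other mice of their group, and results below are also given without microglia holding 3 or more UMIs of endothelial markers. The ependymal and choroid markers were also highest in those mice (1074 CPM in WT and 552 CPM in ArcSwe replicate 3 in ribosomal-high microglia, against 43.7 to 256 CPM in the other mice), and their part in the results was not tested. Microglia with endothelial markers were 11.3%, 13.5% and 39.7% of ribosomal-high microglia in the WT mice and 32.8%, 41.2% and 44.9% in the ArcSwe mice. In ribosomal-low microglia they were 2.40% to 9.15% over all mice. The limit of 3 UMIs is a fixed count not scaled to depth, so cells with more UMIs reach it more easily.

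Promoter sequence was at hand in RefSeq (GRCm38.p6) for P2ry12, P2ry13, Cx3cr1, Siglech, Fcrls and Crybb1. The 250 bases before each start were searched on both strands for GAGGAA and GGAAGT, 2 purine-rich strings that contain the GGAA core bound by PU.1 and other ETS factors and that can overlap each other. The windows below show the matches of the receptor genes, because ETS factors are part of the resting programme these genes belong to. Each is written 5′ to 3′ on the gene's strand with the motif in capitals. Siglech carries the reverse complement of GGAAGT.
P2ry12 (chr3:59263009-59263058, minus strand, motif 51 bases before the start): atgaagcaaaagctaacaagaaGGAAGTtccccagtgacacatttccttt
P2ry13 (chr3:59210903-59210952, minus strand, motif 48 bases before the start): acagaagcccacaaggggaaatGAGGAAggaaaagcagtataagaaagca
Siglech (chr7:55768006-55768055, plus strand, motif 156 bases before the start): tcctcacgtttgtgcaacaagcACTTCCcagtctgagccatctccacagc
Fcrls held 1 match of each motif, both inside the span that GENCODE M21 annotates for the gene, and no match was found in Cx3cr1 or Crybb1. Thus 4 of the 6 promoters held a match, against 36.7% of 32851 mouse promoters of the same length that held either string. No binding was measured here, and the matches are given as letters only.

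On GRCm38 (GENCODE M21), P2ry12 (chr3:59216272-59262871) and P2ry13 (chr3:59207892-59210882) are neighbours on the minus strand and both lie within Med12l on the other strand. Gpr34 (chrX:13632089-13640858, plus strand) lies within Cask, also on the other strand. Tmem119 (chr5:113793729-113800516), Selplg (chr5:113818536-113832644) and Crybb1 (chr5:112255815-112269585) share a chromosome, the first pair adjacent on the minus strand and Crybb1 on the plus strand. Siglech (chr7:55768178-55778925) is on the plus strand and Fcrls (chr3:87250758-87263738) on the minus strand. The annotated span of Cx3cr1 (chr9:119901616-120069879, minus strand) overlaps Gorasp1, Csrnp1 and Xirp1 on its own strand and Wdr48 and Ttc21a on the other, so its reads could in part be shared with those genes. Each gene is compared below across cells and mice, not with the other genes, since the counts are not scaled to transcript length.

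All 9 genes were highest in microglia by the median over the mice. For each gene, ribosomal-low and ribosomal-high microglia overlapped over the 6 mice. Within ArcSwe replicate 1, Fcrls was higher in macrophage-like cells (817 CPM) than in ribosomal-high (787 CPM) or ribosomal-low microglia (654 CPM). P2ry12, Tmem119, Cx3cr1, Siglech, Gpr34 and Crybb1 were above the next class in every mouse. P2ry12 reached 611 to 1631 CPM in ribosomal-high and 916 to 1356 CPM in ribosomal-low microglia over the 6 mice, against 0 to 187 CPM in macrophage-like cells. Tmem119 spanned 295 to 936 CPM in ribosomal-high microglia and 0 to 68.7 CPM in macrophage-like cells. Siglech and Gpr34 followed the same order, with 0 to 149.97 and 94.1 to 319 CPM in macrophage-like cells. Crybb1 in B cells, the class next to microglia by its median, was at 7.06 to 16.6 CPM, and in macrophage-like cells it was at 0 to 28.9 CPM.

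Some of the 9 were also found at sizeable levels outside microglia. Cx3cr1 in macrophage-like cells (391 to 652 CPM) was above every further class in all mice with cells. P2ry13 in macrophage-like cells reached 139 CPM and overlapped only the low end of ribosomal-high microglia (132 to 313 CPM). Fcrls reached 817 CPM there and overlapped both microglial classes. These ranges include mice with few macrophage-like cells. For Selplg, whose product lets leukocytes roll on selectins, T and NK cells came next, at 411 to 667 CPM from 22 to 74 cells per mouse, and overlapped ribosomal-high microglia (597 to 1378 CPM). These orders are a description, since cell classes were built on the same cells.

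**Figure D1:**
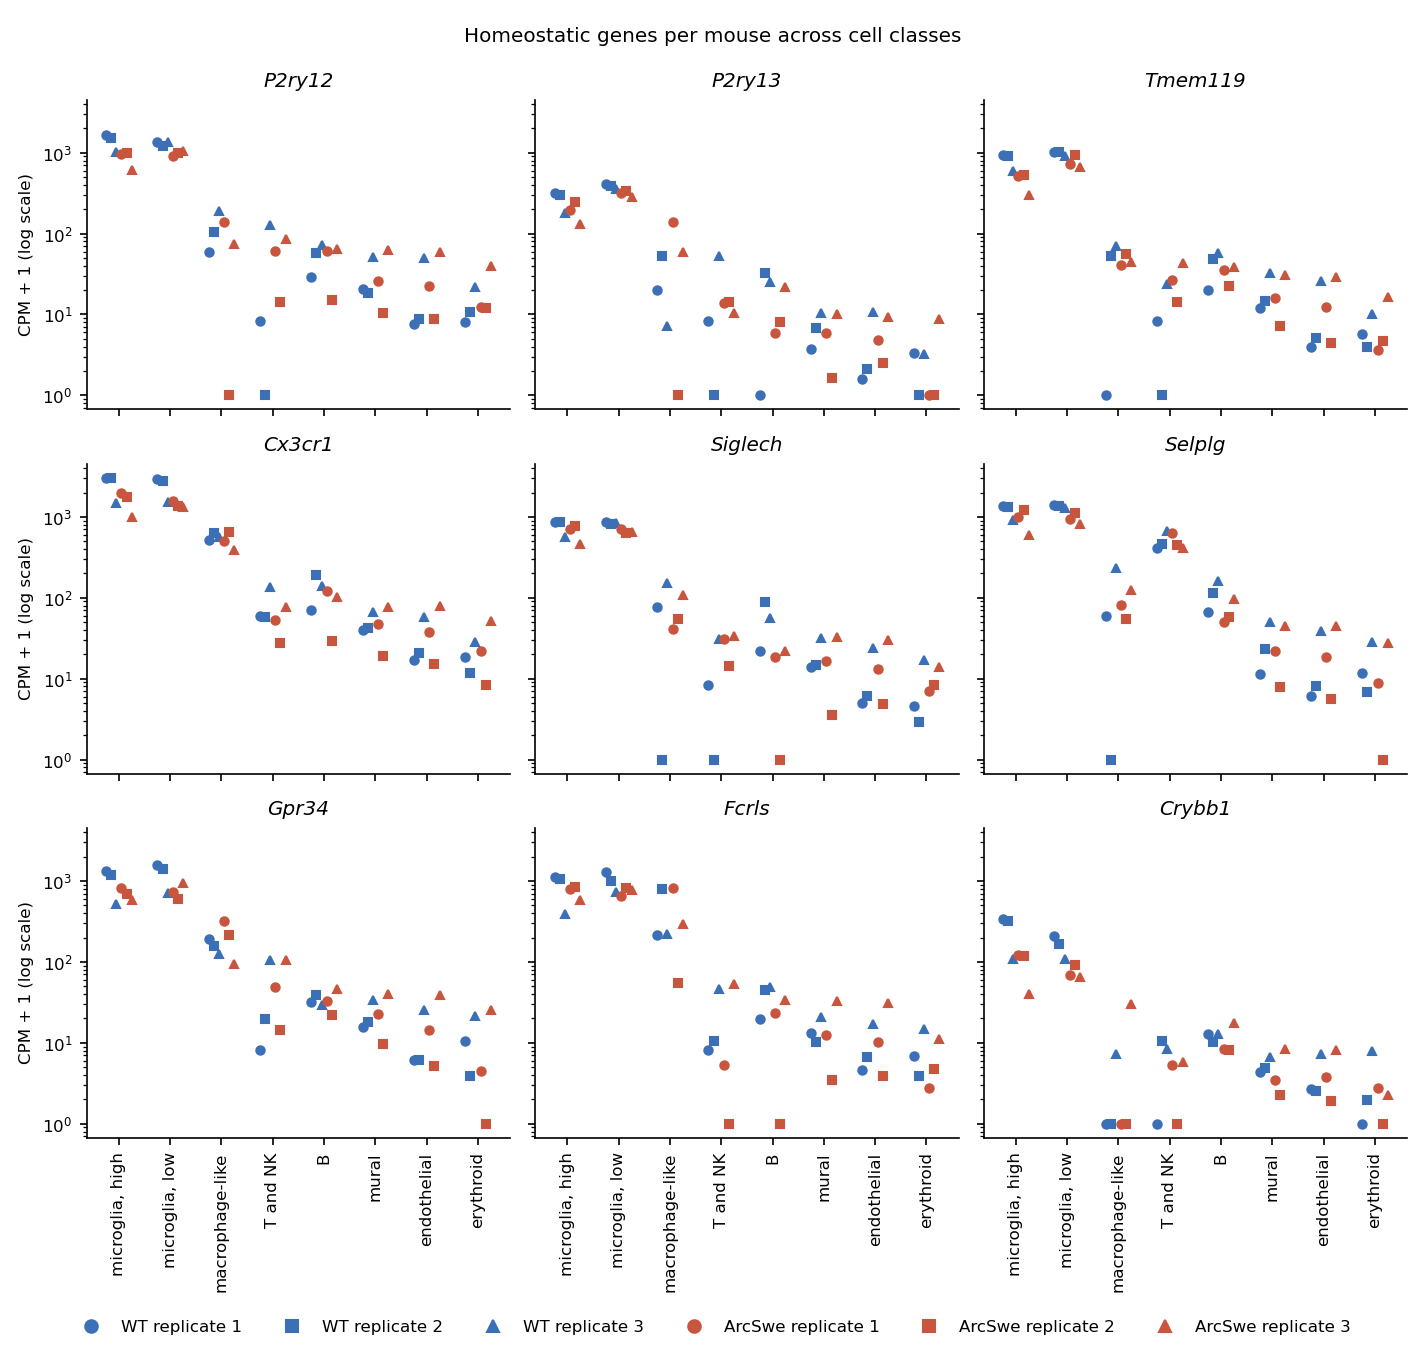
Level of each of the 9 genes (CPM + 1, log axis) by cell class, with 1 point per mouse and colour for genotype. By the median over the mice, microglia stood at the top in each panel. T and NK cells were close below for Selplg, and macrophage-like cells for Cx3cr1 and Fcrls. For Fcrls in ArcSwe replicate 1, macrophage-like cells stood above microglia.

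In all microglia of a mouse summed, each of the 9 genes had a negative fold change in ArcSwe against WT, with a median of -0.49 on the log2 scale, while the median of all 11572 genes tested was -0.02 and 51.8% of them were negative. None of the 9 passed the test (edgeR's quasi-likelihood test on counts summed per mouse, Benjamini-Hochberg adjustment), in a comparison in which 4 genes, 0.0346% of those tested, did. DESeq2 called none of the 9 either, and only Crybb1 had an unadjusted p under 0.05 in edgeR, as did 7.86% of all genes. In sums of this kind, fewer cells with a transcript and less RNA per cell cannot be told apart.

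P2ry12, Siglech and Crybb1 did not overlap between the genotypes in all microglia, 3 of 9 genes where 10.2% of all genes were lower in every ArcSwe mouse than in every WT mouse. P2ry12 measured 1595, 1462 and 1225 CPM in the WT mice and 957, 996 and 749 CPM in the ArcSwe mice, and all 3 ArcSwe mice were below the lowest WT mouse. Its log2 fold change was -0.63 (SE 0.30, adjusted p = 0.665). Siglech measured 866, 849 and 732 CPM in the WT mice and 704, 661 and 519 CPM in the ArcSwe mice, a log2 fold change of -0.34 (SE 0.27, adjusted p = 0.74). For Crybb1, the levels were 324, 293 and 109 CPM in the WT mice and 106, 97.1 and 47.4 CPM in the ArcSwe mice. WT replicate 3 was close to ArcSwe replicate 1, and the other WT mice were far above both. Its log2 fold change was -1.55 (SE 0.50, adjusted p = 0.501), and with the replicate number of the labels as a block it was -1.43 (SE 0.26, adjusted p = 0.0402), past the threshold. The fit with the block called 65 of 12113 genes, 2 of them lower.

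In ribosomal-high microglia the median fold change of the 9 genes was -0.55 on the log2 scale, again negative for 9 of 9, against -0.05 for all 10950 genes tested, of which 55.1% were negative. None passed edgeR's test, which called 22 genes (0.201%), and DESeq2, which called 95 genes, called none of the 9. P2ry12 and Tmem119 did not overlap between genotypes (2 of 9, where 12.1% of all genes were lower in every ArcSwe mouse). P2ry12 measured 1631, 1512 and 1027 CPM in the WT mice and 975, 998 and 611 CPM in the ArcSwe mice, with WT replicate 3 only slightly above the ArcSwe mice, for a log2 fold change of -0.71 (SE 0.34, adjusted p = 0.579). Tmem119 measured 936, 897 and 587 CPM in the WT mice and 517, 522 and 295 CPM in the ArcSwe mice, with ArcSwe replicate 3 lowest, and its log2 fold change was -0.88 (SE 0.35, adjusted p = 0.511).

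Crybb1 had the largest fold change of the 9 in ribosomal-high microglia. Its raw counts were 1566, 1154 and 103 UMIs in the WT mice and 280, 15 and 124 UMIs in the ArcSwe mice, or 341, 318 and 108 CPM in the WT mice and 122, 117 and 39.5 CPM in the ArcSwe mice. WT replicate 3 was below ArcSwe replicates 1 and 2, so the groups overlapped, and ArcSwe replicate 2 rested on 15 UMIs. The log2 fold change was -1.57 (SE 0.61, adjusted p = 0.497), and -1.44 (SE 0.22, adjusted p = 0.0051) with the replicate number as a block. The fit with the block called 165 of 11535 genes, 11 of them lower. Without WT replicate 3, 6 of the 9 passed the threshold in ribosomal-high microglia, namely P2ry12, P2ry13, Tmem119, Cx3cr1, Gpr34 and Crybb1, all lower in ArcSwe. That fit called 1921 of 11397 genes, 1391 of them higher and 530 lower. Crybb1 had a log2 fold change of -2.02 (SE 0.39, adjusted p = 0.00773) in it. The endothelial markers of the sums in that fit were 1081 and 983 CPM in WT and 3871, 3149 and 8949 CPM in ArcSwe. Their part in these calls was not tested.

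The receptors for Cx3cl1 and lysophosphatidylserine spread widely among the WT mice. Cx3cr1 in ribosomal-high microglia measured 3023, 3043 and 1495 CPM in the WT mice and 1968, 1777 and 1001 CPM in the ArcSwe mice. WT replicates 1 and 2 were together at the top, while WT replicate 3 was below ArcSwe replicates 1 and 2. Gpr34 measured 1315, 1174 and 515 CPM in the WT mice and 819, 686 and 581 CPM in the ArcSwe mice, and WT replicate 3 was the lowest of all 6 mice. Their log2 fold changes were -0.69 (SE 0.44, adjusted p = 0.653) and -0.55 (SE 0.42, adjusted p = 0.702).

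Siglech, the selectin ligand Selplg, Fcrls and the ADP receptor P2ry13 overlapped between the genotypes in ribosomal-high microglia. Siglech measured 866, 855 and 560.0 CPM in the WT mice and 703, 779.5 and 461 CPM in the ArcSwe mice, and ArcSwe replicates 1 and 2 lay between WT replicate 3 and the other WT mice. Fcrls measured 1122, 1070.5 and 392 CPM in the WT mice and 787, 842 and 574 CPM in the ArcSwe mice, and again WT replicate 3 was lowest. The log2 fold changes were -0.25 for Siglech, -0.37 for Selplg, -0.27 for Fcrls and -0.54 for P2ry13, with adjusted p from 0.658 to 0.882.

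**Figure D2:**
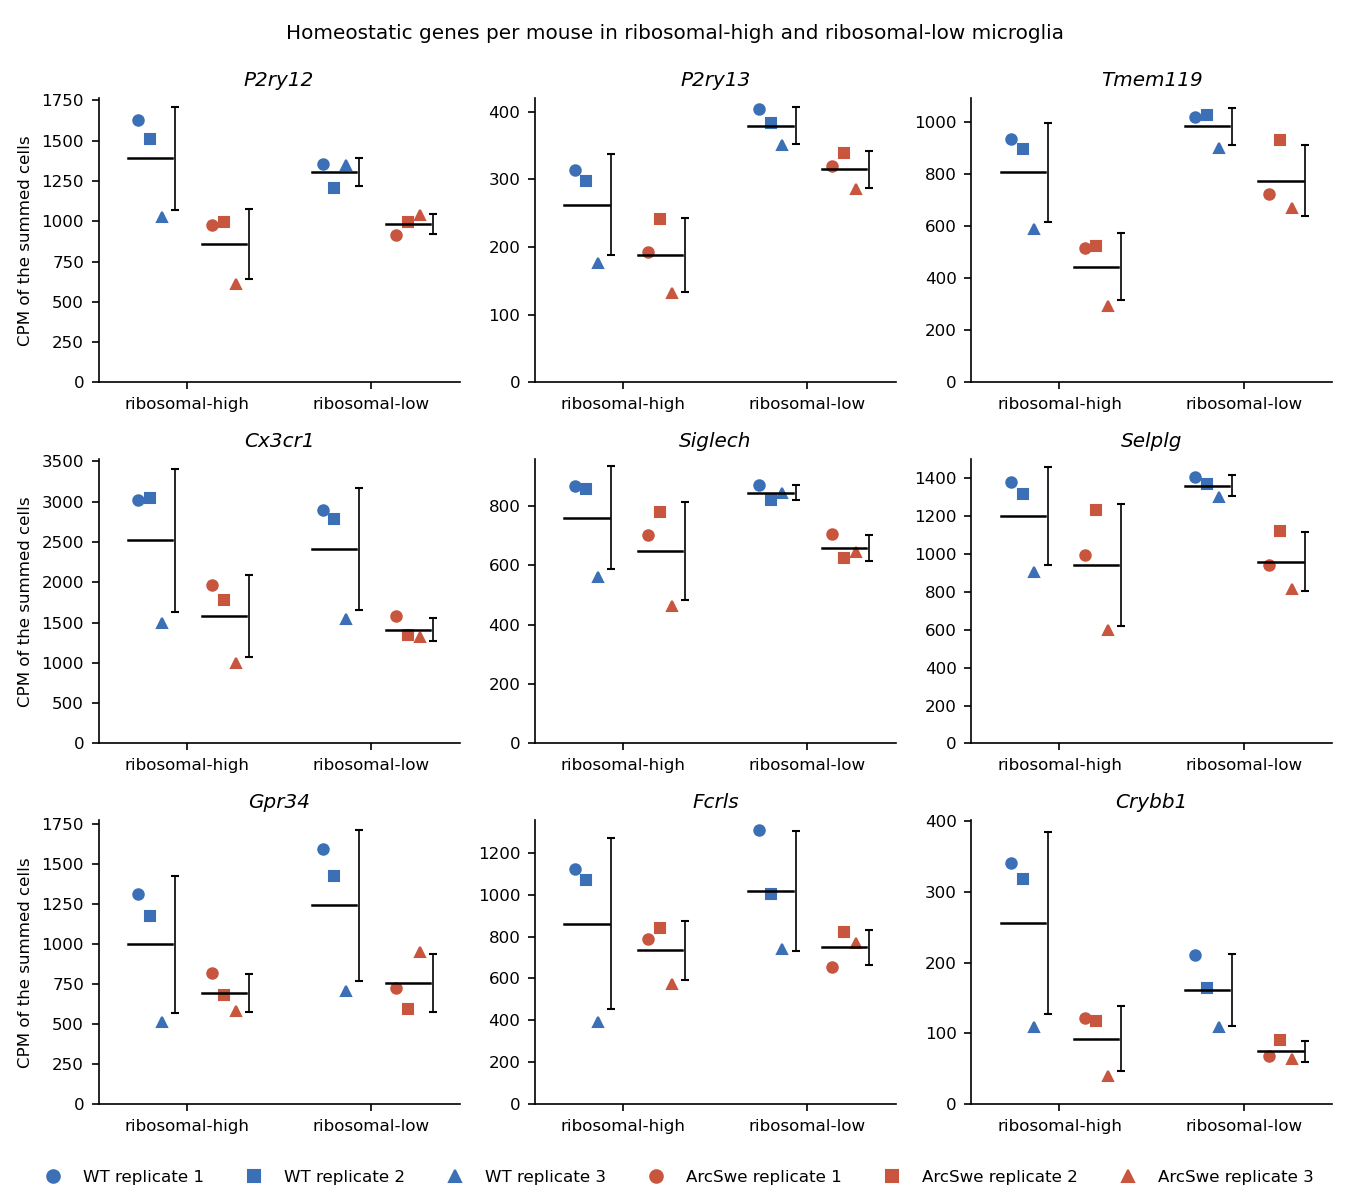
Level of each gene (CPM) in ribosomal-high and ribosomal-low microglia of the 3 WT and 3 ArcSwe mice, with points for mice, bars for group means and error bars for the SD. For P2ry12 the ArcSwe points lie below the WT points in both classes, while for Gpr34 and Fcrls WT replicate 3 lies among or below the ArcSwe points.

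Leaving out the microglia with endothelial markers raised P2ry12, Tmem119 and Crybb1 in ribosomal-high microglia of every mouse, and least in WT replicates 1 and 2. P2ry12 in ribosomal-high microglia then measured 1703, 1581 and 1532 CPM in the WT mice and 1183, 1113 and 889 CPM in the ArcSwe mice, and Tmem119 measured 971, 942 and 958 CPM in the WT mice and 651, 634 and 500.3 CPM in the ArcSwe mice. In both genes the 3 WT mice lay close together and above all ArcSwe mice. Crybb1 measured 359, 336 and 201 CPM in the WT mice and 151, 155 and 71.1 CPM in the ArcSwe mice, and its groups no longer overlapped. Cx3cr1, Siglech and Selplg did not overlap either, though by narrow gaps. Their lowest WT mouse was at 2419, 884 and 1379 CPM and their highest ArcSwe mouse at 2391, 845 and 1338 CPM. For Siglech and Selplg that ArcSwe mouse was replicate 2, with 10 cells. The share of all genes without overlap was not computed for these cells, so the lack of overlap is a description only. The log2 fold changes were -0.50 (SE 0.24, adjusted p = 0.427) for P2ry12, -0.59 (SE 0.23, adjusted p = 0.297) for Tmem119 and -1.25 (SE 0.35, adjusted p = 0.104) for Crybb1. The median over the 9 was -0.25, with 8 of 9 negative and Fcrls at 0.03, in a fit that called 210 genes. ArcSwe replicate 2 entered it with 10 cells.

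The genotype difference was also computed in ribosomal-high cells with none of the 7 DAM genes (Cst7, Clec7a, Itgax, Lpl, Gpnmb, Spp1 and Axl) detected. All 9 fold changes were negative there, with a median of -0.65 on the log2 scale. None passed the test, which called 0 of 9735 genes in edgeR (473 at an unadjusted p under 0.05, and DESeq2 was not run on these cells). P2ry12 was at -0.72 (SE 0.38, adjusted p = 0.786) and Crybb1 at -1.09 (SE 0.66, adjusted p = 0.786). The summed endothelial markers of these cells were 1171, 983 and 9471 CPM in the WT mice and 6469, 6865 and 12399 CPM in the ArcSwe mice, and their part in the values was not tested.

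In ribosomal-low microglia all 9 fold changes were negative, with a median of -0.38 on the log2 scale, against -0.03 for all 8012 genes tested, and none passed edgeR's test, which called 9 genes (0.112%), or that of DESeq2, which called 25. P2ry12, P2ry13, Siglech, Selplg and Crybb1 did not overlap between genotypes, 5 of 9 where 12.2% of all genes were lower in every ArcSwe mouse. P2ry12 measured 1356, 1205 and 1351 CPM in the WT mice and 916, 995 and 1041 CPM in the ArcSwe mice, and the log2 fold change was -0.32 (SE 0.21, adjusted p = 0.624). Selplg measured 1408, 1370.3 and 1299 CPM in the WT mice and 939, 1123 and 817 CPM in the ArcSwe mice, a log2 fold change of -0.43 (SE 0.23, adjusted p = 0.54). The 3 WT mice lay close together for both genes, WT replicate 3 included.

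Crybb1 measured 211, 164 and 109 CPM in the WT mice and 68.7, 90.9 and 64.2 CPM in the ArcSwe mice in ribosomal-low microglia, with all ArcSwe mice below WT replicate 3. Its log2 fold change was -1.06 (SE 0.28, adjusted p = 0.268), past the threshold only without WT replicate 3 and without a filter on low counts among the alternatives run. Cx3cr1 measured 2902, 2789 and 1538 CPM in the WT mice and 1577, 1344 and 1315 CPM in the ArcSwe mice, so that WT replicate 3 was level with the ArcSwe mice and far below the other WT mice. Its log2 fold change was -0.71 (SE 0.30, adjusted p = 0.454), and -0.99 (SE 0.14, adjusted p = 0.0246) without WT replicate 3. P2ry13, the other ADP receptor, measured 404, 384 and 351 CPM in the WT mice and 319, 339 and 286 CPM in the ArcSwe mice. The gap between its groups was small, and its log2 fold change was -0.19 (SE 0.20, adjusted p = 0.752). Siglech measured 869, 818 and 842 CPM in the WT mice and 706, 624 and 643 CPM in the ArcSwe mice, and its log2 fold change was -0.28 (SE 0.20, adjusted p = 0.65). Gpr34 and Fcrls overlapped, with ArcSwe replicate 3 above WT replicate 3 in both.

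**Figure D3:**
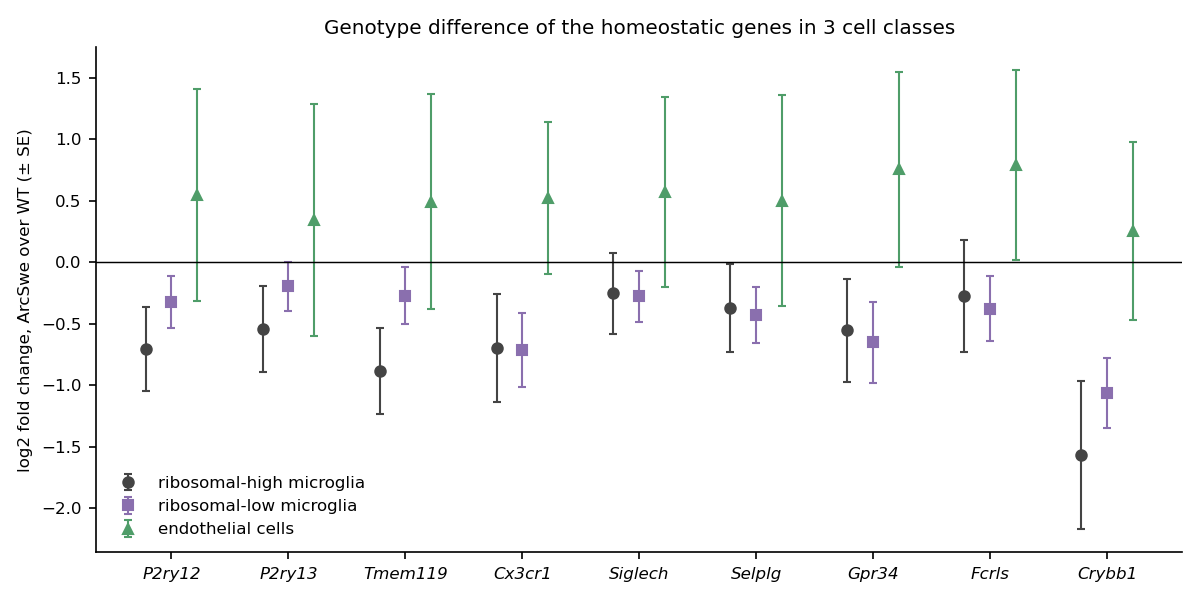
Log2 fold change of ArcSwe against WT with its SE for the 9 genes in ribosomal-high microglia, ribosomal-low microglia and endothelial cells. All microglial points lie below 0 and Crybb1 is the lowest in both microglial classes, while the endothelial points lie above 0 with SEs of 0.62 to 0.94.

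The share of microglia with a UMI of each gene was compared after every cell was thinned to 1000 UMIs, which left out 8, 0 and 73 ribosomal-high and 29, 38 and 323 ribosomal-low cells of the WT mice, and 3, 0 and 344 ribosomal-high and 207, 12 and 508 ribosomal-low cells of the ArcSwe mice. P2ry12 was found in 72.9%, 71.3% and 67.1% of thinned microglia of the WT mice and in 50.2%, 53.5% and 49.5% of those of the ArcSwe mice. The means were 70.4% ± 2.97 (SD, n = 3) and 51.1% ± 2.14 (SD, n = 3), without overlap, and the two-sided exact permutation test gave p = 0.1, the smallest that 3 against 3 allows. Crybb1 was found in 21.97%, 19.4% and 9.26% of WT and 8.42%, 7.51% and 5.59% of ArcSwe microglia, and Cx3cr1 in 91.1%, 89.98% and 70.3% against 68.5%, 63.8% and 62.0%.

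Both genes and Selplg (68.2% against 55.3% on average) also did not overlap between the genotypes (exact permutation test, p = 0.1 and adjusted p = 0.225 over the 9 genes for each of the 4), 4 of 9 where 9.27% of all genes tested in microglia were found in a smaller share of cells in every ArcSwe mouse. The other 5 overlapped, with p from 0.2 to 0.5 in the exact permutation test. With cells thinned to 500 UMIs, which left out no microglia, 5 of 9 did not overlap (9.35% of all genes in the same direction), namely P2ry12 (46.6% against 34.8% on average), Crybb1 (9.72% against 3.11%), P2ry13, Tmem119 and Siglech. Cx3cr1 and Selplg overlapped at that depth (exact permutation test, p = 0.2), so only P2ry12 and Crybb1 were without overlap at both depths. Unthinned, P2ry12 was found in 87.1% ± 10.4 (SD, n = 3) of WT and 70.2% ± 6.93 (SD, n = 3) of ArcSwe microglia, and the groups overlapped. In endothelial cells thinned in the same way, which should lack the gene, P2ry12 was found in 0.66% to 6.50% of cells, Cx3cr1 in 1.58% to 7.11% and Crybb1 in 0.106% to 0.779%. Crybb1 in ArcSwe microglia thus remained above the endothelial share of the same mouse in each case.

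Ribosomal-low and ribosomal-high microglia of the same mouse were compared with the mouse as a block, a contrast in which 5663 of 10593 genes passed the test (53.5%; 25.5% higher and 28.0% lower in ribosomal-low cells). P2ry13 and Tmem119 were higher in ribosomal-low microglia of 6 of 6 mice, where 20.4% of all genes were. The ratio of ribosomal-low to ribosomal-high CPM for P2ry13 was 1.29, 1.29 and 1.98 in the WT mice and 1.66, 1.40 and 2.17 in the ArcSwe mice, and the log2 fold change was 0.73 (SE 0.15, adjusted p = 0.000504) by edgeR's quasi-likelihood test. For Tmem119 the ratio was 1.09, 1.15 and 1.53 in the WT mice and 1.40, 1.78 and 2.27 in the ArcSwe mice, and the log2 fold change was 0.61 (SE 0.16, adjusted p = 0.0039). The other 7 genes did not pass the test, with log2 fold changes from -0.34 for Crybb1 to 0.29 for Gpr34, and the median over the 9 was 0.20.

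Mice differed in this contrast along with the endothelial markers of their ribosomal-high cells. WT replicate 3 and ArcSwe replicate 3 had the highest P2ry12 ratios, in a gene whose ratio was 0.831, 0.797 and 1.32 in the WT mice and 0.939, 0.997 and 1.70 in the ArcSwe mice. Without cells holding endothelial markers, P2ry13 (0.25, SE 0.12, adjusted p = 0.103) and Tmem119 (0.13, SE 0.14, adjusted p = 0.459) no longer passed the test, while Crybb1 (-0.89, SE 0.15, adjusted p = 7.94e-05) and Cx3cr1 (-0.46, SE 0.15, adjusted p = 0.0153) were called lower in ribosomal-low cells, as were 24.5% of all genes, and the median over the 9 turned to -0.22. The Crybb1 ratio was then 0.570, 0.491 and 0.552 in the WT mice and 0.469, 0.539 and 0.981 in the ArcSwe mice, below 1 in 6 of 6 mice though barely so in ArcSwe replicate 3. With whole clusters in place of the 3% cut, 7 genes, all but P2ry13 and Tmem119, were called lower in the ribosomal-low clusters (median -0.47), where 21.6% of all genes were. Thus the sign for P2ry12, Siglech, Selplg, Gpr34 and Fcrls depended on how the cells were taken. Without ArcSwe replicate 3, Crybb1 joined the 2 called genes (-0.58, SE 0.18, adjusted p = 0.014), and without the mouse block Tmem119 left them (0.48, SE 0.26, adjusted p = 0.139).

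**Figure D4:**
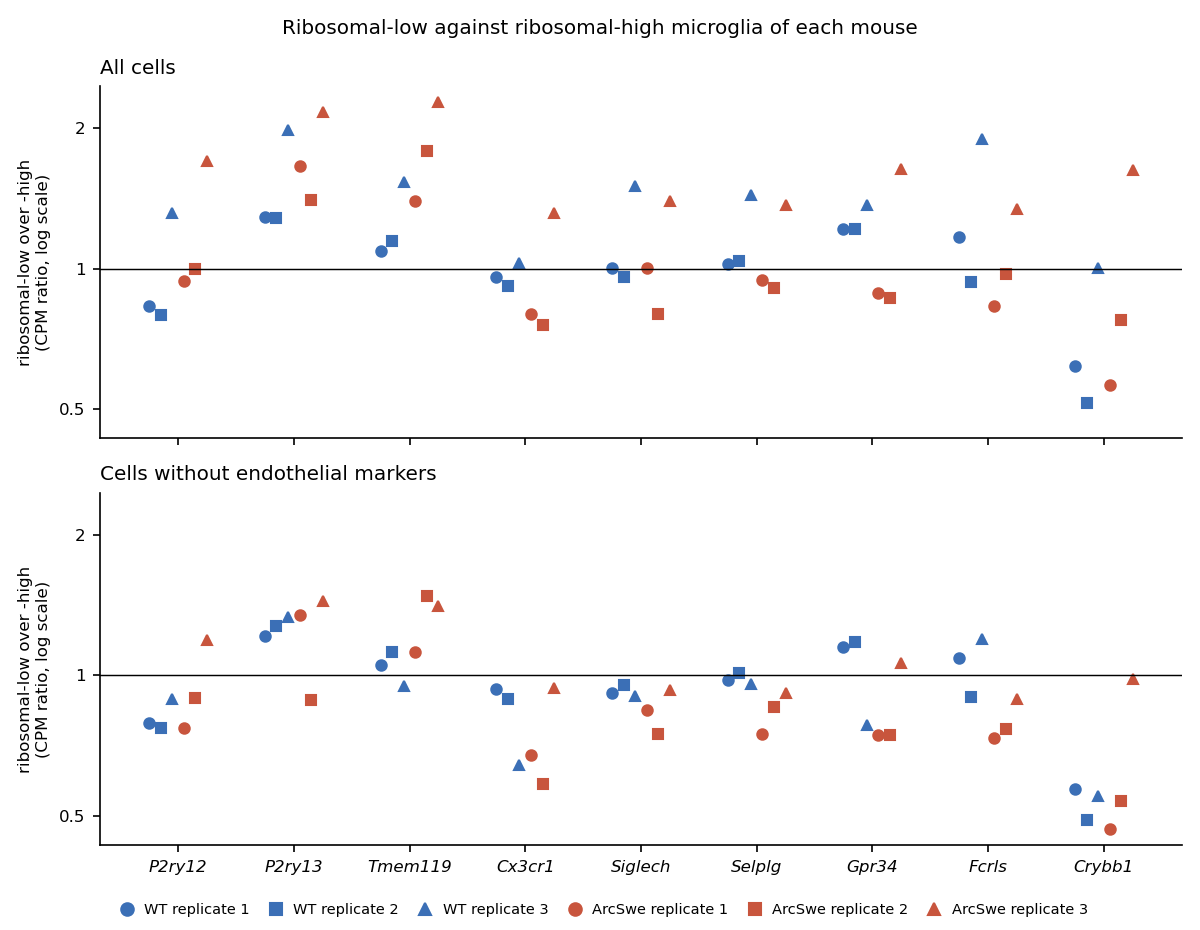
Ratio of CPM in ribosomal-low to ribosomal-high microglia (log axis) for the 9 genes, 1 symbol per mouse, over all cells (top) and without cells holding 3 or more UMIs of endothelial markers (bottom). The triangles of WT and ArcSwe replicate 3 stand highest for most genes in the top panel, and the Crybb1 symbols gather near 0.5 in the bottom panel except that of ArcSwe replicate 3 at 0.981.

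Whether the ribosomal-low against ribosomal-high difference itself differed between genotypes was tested with an interaction term. No gene of 10593 passed in edgeR (897, 8.47%, at an unadjusted p under 0.05, and DESeq2 was not run for this term). Of the 9, Tmem119 had the largest value, 0.57 (SE 0.27, adjusted p = 0.588) on the log2 scale, and the remaining 8 lay between -0.25 and 0.50.

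Disease-associated cells were compared with other cells within the ribosomal-high microglia of each ArcSwe mouse, with the mouse as a block. DAM cells were those with at least 2 of the 7 DAM genes detected (130, 5 and 227 cells) and other cells those with none (212, 10 and 728 cells). In this contrast 2190 of 9784 genes passed edgeR's test (22.4%; 12.0% higher and 10.4% lower in DAM cells). The 9 genes parted into a group that was lower, a group that was higher and a group that did not pass.

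Crybb1 and Tmem119 were lower in DAM cells in 3 of 3 mice, where 36.4% of all genes were. Crybb1 measured 20.7, 59.6 and 26.6 CPM in the DAM cells and 197, 190.2 and 48.8 CPM in the other cells of ArcSwe replicates 1, 2 and 3, and the log2 fold change was -1.76 (SE 0.34, adjusted p = 0.000531). The separation was widest in replicate 1 and narrowest in replicate 3. Tmem119 measured 258, 357 and 212 CPM in the DAM cells and 732, 744 and 372 CPM in the other cells, a log2 fold change of -0.85 (SE 0.21, adjusted p = 0.00451). P2ry13, also lower in 3 of 3 mice, did not pass (-0.51, SE 0.20, adjusted p = 0.0801), and P2ry12 was at -0.02.

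Siglech, Gpr34 and Fcrls were higher in DAM cells. Siglech measured 701, 953 and 604 CPM in the DAM cells and 687, 588 and 357 CPM in the other cells, higher in 3 of 3 mice, where 13% of all genes (1276 of 9784) were, but nearly level in replicate 1, and the log2 fold change was 0.75 (SE 0.21, adjusted p = 0.0117). Gpr34 and Fcrls were higher in 2 of 3 mice, with log2 fold changes of 0.74 (SE 0.23, adjusted p = 0.0249) and 0.86 (SE 0.23, adjusted p = 0.00749). Selplg (0.35) and Cx3cr1 (0.07) did not pass. DESeq2 called only Crybb1 and Tmem119 among the 9.

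The endothelial markers stood at 1210, 104 and 3922 CPM in the DAM cells and 6469, 6865 and 12399 CPM in the other cells, and the DAM cells were deeper, with medians of 8806.5, 14195 and 6380 UMIs against 5684, 6301.5 and 1153. Cells holding 3 or more UMIs of endothelial markers, a limit not scaled to depth, were 26.2%, 40.0% and 52.4% of the DAM cells. They were 39.6%, 50.0% and 41.6% of the other cells. With these cells left out, the higher values were gone: Siglech was at 0.02, Gpr34 at -0.02 and Fcrls at 0.06. Crybb1 (-2.57, SE 0.37, adjusted p = 5.8e-10), Tmem119 (-1.59, SE 0.27, adjusted p = 2.36e-07), P2ry13 (-1.19, SE 0.27, adjusted p = 0.000283) and P2ry12 (-0.81, SE 0.27, adjusted p = 0.0213) were then lower in DAM cells, 4 of 9 in a fit that called 1008 genes and 5.05% of all genes lower. Crybb1 gave 9, 2 and 21 UMIs in 96, 3 and 108 DAM cells there, and 173, 9 and 43 UMIs in 128, 5 and 425 other cells. Endothelial markers still stood at 117, 24.1 and 196 CPM in these DAM cells and 155, 114 and 797 CPM in the others. With cells thinned to 2000 UMIs before the DAM genes were read, Crybb1 alone passed (-2.63, SE 0.69, adjusted p = 0.00212). This left out cells under 2000 UMIs and rested on few counts. Crybb1 gave 0, 0 and 4 UMIs in 96, 2 and 132 DAM cells of replicates 1, 2 and 3. In 224, 10 and 288 other cells it gave 67, 3 and 12 UMIs, and the CPM ratio in replicate 3 was 0.771. Crybb1 and Tmem119 lost their calls without ArcSwe replicate 1. Crybb1 was then at -0.83 (SE 0.55, adjusted p = 0.47), and at -2.63 (SE 0.50, adjusted p = 0.00017) without replicate 3, while Tmem119 was at -0.68 (SE 0.34, adjusted p = 0.257) without replicate 1. Siglech lost its call without replicate 3, Gpr34 without replicate 2 or 3, and Fcrls without replicate 1 or 3.

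**Figure D5:**
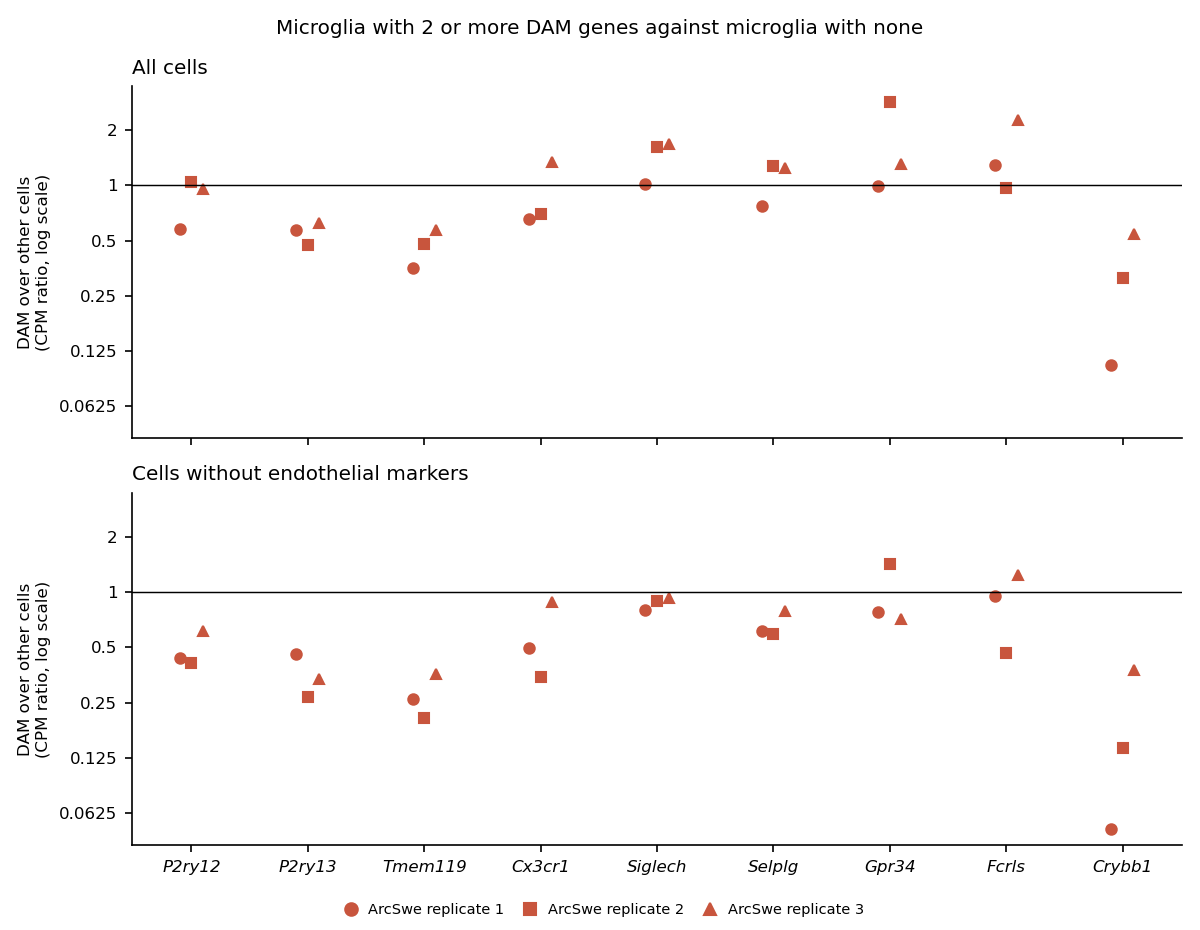
Ratio of CPM in DAM cells to CPM in other ribosomal-high microglia (log axis) for the 9 genes in the 3 ArcSwe mice, over all cells (top) and without cells holding endothelial markers (bottom). Crybb1 and Tmem119 lie below 1 in both panels, while Siglech, Gpr34 and Fcrls lie at or above 1 in most mice in the top panel only.

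Macrophage-like cells were 3 sub-clusters named from macrophage markers such as Mrc1, a receptor that marks the perivascular macrophages. Mrc1 was detected in 82.61% of the 46 cells of one sub-cluster, and in 49.1% and 48.15% of the 53 and 27 cells of the others. In those, Ccr2, a monocyte receptor, was detected in 32.1% and 29.6% of cells and the class II genes H2-Eb1, H2-Ab1 and H2-Aa were among the leading genes, so the class is mixed. It numbered 126 cells, with 8, 7 and 48 cells in the WT mice and 13, 3 and 47 in the ArcSwe mice. Genotypes were compared in the 3 mice with at least 10 cells (WT replicate 3, ArcSwe replicates 1 and 3), so the WT side was 1 mouse that is assumed to vary like the ArcSwe mice. Of 3929 genes tested 10 were called (0.255%), none of them among the 7 homeostatic genes tested (1 of the 7 had an unadjusted p under 0.05 in edgeR, as did 4.07% of all genes, and DESeq2 called 2 genes and none of the 7), and Tmem119 and Crybb1 were too low to test. Cx3cr1 measured 569 CPM in WT replicate 3 and 498 and 391 CPM in ArcSwe replicates 1 and 3, which is 38.0%, 25.3% and 39.1% of the level in ribosomal-high microglia of the same mouse. P2ry12 was at 18.2%, 14.3% and 11.8% of the microglial level.

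Fcrls in these cells measured 219 CPM in WT replicate 3 and 817 and 297 CPM in ArcSwe replicates 1 and 3, or 55.9%, 104% and 51.7% of ribosomal-high microglia, from 35, 41 and 41 UMIs. Its log2 fold change was 1.30 (SE 0.59, adjusted p = 0.997) by edgeR, and 0.17 (SE 0.77, adjusted p = 0.998) with all 6 mice, mice of 3 to 8 cells included. In the sub-cluster of 46 cells led by Mrc1, F13a1, Pf4 and Cd163, Fcrls stood at 635, 1098 and 639 CPM in the same mice. These values came from 24, 20 and 29 UMIs. Ribosomal-high microglia of those mice were lower, at 392, 787 and 574 CPM. Crybb1 gave 0 to 4 UMIs per mouse over all 126 cells. Tmem119 gave 0 to 11 UMIs per mouse.

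Endothelial cells gave the background. P2ry12 measured 6.55, 7.74 and 48.7 CPM in the WT mice and 21.2, 7.67 and 58.6 CPM in the ArcSwe mice there, and Cx3cr1 measured 15.8, 19.8 and 57.3 CPM in the WT mice and 37.1, 14.3 and 77.2 CPM in the ArcSwe mice. In each genotype replicate 3 was by far the highest, as it was for endothelial markers in ribosomal-high microglia. As a share of the level in ribosomal-high microglia, the median over the 9 genes was 0.393%, 0.512% and 4.29% in the WT mice and 1.89%, 0.626% and 7.44% in the ArcSwe mice. Other microglial markers had medians of 0.385%, 0.533% and 2.85% in the WT mice and 0.914%, 0.244% and 4.17% in the ArcSwe mice.

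All 9 genes had positive fold changes in ArcSwe endothelial cells (median 0.52 on the log2 scale, from 0.26 for Crybb1 to 0.79 for Fcrls), opposite in sign to microglia, and the groups overlapped for each, where 3.8% of all genes were higher in every ArcSwe mouse. No gene of 13777 passed edgeR's test (558, 4.05%, at an unadjusted p under 0.05), and DESeq2 called 16, none of them among the 9. Without ArcSwe replicate 3 all 9 values turned negative, with a median of -0.39, and without WT replicate 3 the median rose to 1.86. The sign in endothelial cells thus rested on single mice.

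The wider programme was followed in lists of related genes. Of 28 other microglial identity genes, 25, 24 and 24 had negative genotype fold changes in all, ribosomal-high and ribosomal-low microglia, with medians of -0.32, -0.43 and -0.27, and none was called. Sall1, a transcription factor that keeps microglia in their resting identity, had the largest value, -1.03 (SE 0.36, adjusted p = 0.442) in ribosomal-high and -0.80 (SE 0.19, adjusted p = 0.226) in ribosomal-low cells. Upk1b was at -0.92 in ribosomal-high and Golm1 at -0.60 in ribosomal-low cells. Among 18 genes of TGF-beta input and microglial transcription factors, 13 were negative in ribosomal-high and 9 in ribosomal-low cells, and none was called. Csf1, a growth factor on which microglia depend, is also in this list. It had a positive value of 1.12 (SE 0.36, adjusted p = 0.417) in ribosomal-high cells. The paper names Csf1 among the markers of its DAM cells.

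Among 8 purinergic genes tested in ribosomal-high microglia, which handle the nucleotides that P2ry12 and P2ry13 sense, 7 were negative and none was called. The adenosine receptor Adora3 was at -0.81 and Entpd1, the enzyme that breaks down extracellular ATP and ADP, at -0.71. Of 7 ligands and partners, none was called, and the adaptors Tyrobp (1.12, SE 0.41, adjusted p = 0.471) and Hcst (1.08, SE 0.37, adjusted p = 0.442) had the largest values, both positive. Tyrobp is the adaptor of Siglech, whose own fold change was -0.25.

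Between ribosomal-low and ribosomal-high microglia, 14 of the 28 identity genes were called higher and 3 lower in ribosomal-low cells (25.5% and 28.0% of all genes). Mertk (1.00), a receptor for phagocytosis, was among the higher ones, and Rnase4 (-0.64), Sparc (-0.57) and Cst3 (-0.56) were the lower ones. Of the 18 TGF-beta and transcription factor genes 11 were higher, led by Runx1 (0.90) and Mef2a (0.84), and none was lower. Without cells holding endothelial markers, 9 of the 28 identity genes were called higher and 9 lower, with a median of -0.05 in place of 0.39, and 8 of the 18 were higher and 3 lower. Runx1 (0.62), Mef2a (0.67) and Mertk (0.73) then still passed. Entpd1 (0.83), P2rx7 (0.72), P2rx4 (0.70) and Kcnk13 (0.57) were higher and Gnai2 (-1.34) lower among 7 purinergic genes, and P2rx4 and Kcnk13 did not pass without those cells. Med12l (1.32), which spans P2ry12 and P2ry13, and Cask (0.68), which spans Gpr34, were higher in ribosomal-low cells, and Tyrobp (-1.62), Hcst (-1.37) and Cx3cl1 (-3.31), an endothelial transcript, were lower.

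Between DAM and other microglia, 6 of the 28 identity genes were called higher in DAM cells, where 12.0% of all genes were, among them C1qa (1.19), Olfml3 (1.10), Cst3 (1.09), Rnase4 (0.72) and Sparc (0.58). Lower were 5, where 10.4% of all genes were, among them Ecscr (-1.72), Adgrg1 (-0.87), Upk1b (-0.76) and Mertk (-0.60). Ecscr is also an endothelial gene, and endothelial markers were lower in DAM cells. Without cells holding endothelial markers, none of the 28 was called higher and 9 were called lower, all 5 of these included, with a median of -0.25 in place of 0.27. C1qa was then at 0.38 and Olfml3 at 0.34. Csf1 (1.92) and Irf8 (1.39) led 6 higher genes of the list of 18 TGF-beta and transcription factor genes. Of these, Csf1 (1.69), itself a DAM marker in the paper, alone passed without the cells holding endothelial markers. Tyrobp (2.97) and Hcst (2.78) were higher and Entpd1 (-0.97) was lower. P2ry6 (1.00), the UDP receptor of phagocytosis, was higher, though it did not pass without the cells holding endothelial markers (0.35).

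Over the 24 sums of ribosomal-high microglia, ribosomal-low microglia, macrophage-like cells and endothelial cells of the 6 mice, the genes whose log2 CPM ran most like the mean standardised profile of the 9 included Plxdc2 (Pearson's r = 0.968), Vsir (0.967), Tanc2 (0.967) and Mgat4a (0.956), out of 12449 genes. The 9 themselves correlated with their own mean profile at 0.881 (Crybb1) to 0.950 (Gpr34). The sums share libraries and cell classes, so these values are a description of where the genes are found.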

How the data were processed

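Single-cell libraries of cerebral microvessels of 3 WT and 3 ArcSwe mice were used. The authors deposited raw UMI counts per gene and cell, aligned with Cell Ranger 7.0.0 to mm10 (submitters' processing notes), with a mouse Clec7a and a human NOTCH3 entry added (study's methods). Whether intronic reads were counted is not given in the sources used here, and the kit version differs between the labels and the methods. Cells with 500 to 4500 genes and under 10% mitochondrial UMIs were kept, as in the study's methods. Total counts per library were 26436229 to 59161203 UMIs. Precision in a class is limited by its cells, and ArcSwe replicate 2 held only 17 ribosomal-high microglia.

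Cells were clustered with leidenalg 0.10.2 (resolution 1, 2000 variable genes without the 9, 30 components, 20 neighbours), and clusters were named from marker lists. No doublet caller was run, and cells with 3 or more UMIs of endothelial markers were left out as an alternative. Raw counts were summed per mouse and class and tested with edgeR 4.0.16 (filterByExpr, TMM, quasi-likelihood test, Benjamini-Hochberg, threshold 0.05) over all genes tested, after ribosomal, mitochondrial, pseudogene and Rik genes were left out (29386 of 32287 genes stayed), with DESeq2 1.42.0 as an alternative. CPM are counts per 1000000 UMIs of those genes. Mice were compared for single values with exact permutation tests (scipy 1.17.1). Tests were checked on simulated counts. Values are differences of ArcSwe minus WT unless stated.

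Deviations of same-numbered WT and ArcSwe mice correlated at 0.233, 0.163 and 0.368 in all microglia, 0.115, 0.193 and 0.454 in ribosomal-high microglia and 0.193, 0.146 and 0.379 in endothelial cells. Pairs with other numbers reached 0.168, 0.187 and 0.244 in these classes, above the lowest same-number value in each. The replicate 3 pair was the highest in each. The replicate number was also fitted as a block, though the labels do not say what a number shares. The 9 genes and the gene lists were chosen with earlier results of these data known. Named beside the 9 were list genes that passed the test, the 2 of each list with the largest fold change, and the 5 genes with the most similar profile, of which some are not reported here. Alternatives tried were size factors, the filter on low counts, DESeq2, each mouse left out, all genes kept, a stricter cell filter, clustering with the 9, cells without endothelial markers, the block, cuts of 2% and 5% or by cluster, and thinning. Promoters came from RefSeq (GRCm38.p6) and held 6 of the 9 genes.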

Additional observations from a re-analysis of the deposited data

How the results depend on the processing

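The 9 genes kept the negative sign of the genotype difference in microglia in 438 of 441 alternative values, all from the same 6 mice. Of these values 11 passed the threshold. Leaving out WT replicate 3 gave 6 of the 11 in ribosomal-high and 2 in ribosomal-low microglia, in fits that called 1921 of 11397 and 36 of 7783 genes. The 3 values that turned were those of Fcrls in ribosomal-high microglia, at 0.0300 without cells holding endothelial markers, 0.0545 with the classes set by cluster, and -0.67 to 0.0095 with 1 mouse left out. Counts of called genes moved far more than the signs. In all microglia 4 genes were called, 100 without a filter on low counts, 104 with DESeq2, 13 without cells holding endothelial markers, 65 with the replicate block, and 0 to 41 with 1 mouse left out. In ribosomal-high microglia 22 were called, 76 without the filter, 95 with DESeq2, 9 with all genes kept, 4 with the stricter cell filter, 210 without cells holding endothelial markers, 165 with the replicate block, 44 with a cut of 2%, 267 by cluster, 0 in cells with no DAM gene, and 0 to 1921 with 1 mouse left out, the highest without WT replicate 3. In ribosomal-low microglia 9 were called, 160 without the filter, 25 with DESeq2, 2 with the stricter cell filter, 2 with a cut of 5%, 2 by cluster, and 2 to 36 with 1 mouse left out. Same-numbered mice correlated at -0.049, -0.095 and 0.088 in that class, and the replicate block gave 10 genes there. Beyond Crybb1 in all and in ribosomal-high microglia, the block changed no call of the 9 by genotype.

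Between ribosomal-low and ribosomal-high microglia, 4037 genes were called with no replicate block, against 5663. Without cells holding endothelial markers the values turned to -0.28 for P2ry12, -0.26 for Siglech, -0.22 for Selplg, -0.18 for Gpr34 and -0.20 for Fcrls, and by cluster to -0.52, -0.57, -0.41, -0.47 and -0.47. P2ry12 turned to -0.0045 with a cut of 2%, and Cx3cr1 and Crybb1 to 0.19 and 0.15 with a cut of 5%. With 1 mouse left out P2ry12 ranged from -0.040 to 0.26 and Cx3cr1 from -0.15 to 0.048. The median over all genes moved by more than 0.1 only without the filter on low counts (-0.12).

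Between DAM and other microglia 2190 genes were called, 917 with DESeq2, 1008 without cells holding endothelial markers, 648 with cells thinned to 2000 UMIs, and 594 to 2217 with 1 mouse left out. Cx3cr1 turned to -0.017 with other size factors, -0.028 with DESeq2, -0.64 without cells holding endothelial markers and -0.15 with thinning, and ranged from -0.32 to 0.21 with 1 mouse left out. Without cells holding endothelial markers Selplg turned to -0.36 and Gpr34 to -0.023, and P2ry12 ranged from -0.19 to 0.21 with 1 mouse left out. In macrophage-like cells 10 genes were called, 2 with DESeq2 and 0 with all 6 mice, and leaving out a mouse left no residual degrees of freedom and was not run.

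In endothelial cells DESeq2 called 16 genes, and edgeR called 0 under each other alternative run. With 1 mouse left out the values ranged from -0.43 to 2.04 for P2ry12, -0.39 to 2.42 for P2ry13, -0.43 to 2.03 for Tmem119, -0.19 to 1.27 for Cx3cr1, -0.28 to 1.74 for Siglech, -0.45 to 1.88 for Selplg, -0.28 to 1.86 for Gpr34, -0.38 to 1.60 for Fcrls and -0.66 to 1.19 for Crybb1, lowest in each case without ArcSwe replicate 3. Alternatives restricted to cells with no DAM gene, DAM cells without endothelial markers or thinned, macrophages of all 6 mice and the endothelial block were chosen after seeing the data. The cause of these shifts was not tested beyond the values given. The limits are 3 mice a group, which no permutation test takes below p = 0.1, few ribosomal-high cells in ArcSwe replicate 2, and low UMI counts in ribosomal-low cells.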

Other observations

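The microglial clusters of the ArcSwe mice, built without the 9 genes, differed in them in a way that is given here as a description with no test. Cluster 9 is led by Hpgd, Rgs10 and C1qc among genes other than the 9, and clusters 19 and 26 are led by Cst7. In ArcSwe replicate 1, Crybb1 measured 245 CPM in cluster 9 (179 cells), 20.6 CPM in cluster 19 (128 cells) and 9.87 CPM in cluster 26 (29 cells). In ArcSwe replicate 3 it measured 168, 23.3 and 21.8 CPM from 36, 414 and 24 cells. Cluster 4, which held most of the microglia of these mice (769 and 1814 cells), lay between clusters 9 and 19, at 63.0 and 54.3 CPM. Tmem119 followed the same order in replicate 1, at 930 CPM in cluster 9, 551 CPM in cluster 4 and 252 CPM in cluster 19, and in replicate 3 at 757, 509.6 and 207 CPM. Fcrls did not, at 909 and 901 CPM in clusters 9 and 19 of replicate 1 and 627 and 827 CPM in those of replicate 3. Cx3cr1 stood at 385 CPM in cluster 26 and 1533 CPM in cluster 19 of replicate 1, and at 523 and 1140.1 CPM in replicate 3.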
